A study of Homo sapiens with 6 samples.

Results

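The genes described here are 40 heat shock chaperones of the cytosol and mitochondria, together with their cofactors and the heat shock factors HSF1 and HSF2. They were taken from a list of gene symbols, and the rule that picks them uses no measured value, although the list was drawn up with earlier results of these data known. They were found as 40 of the 62710 genes in the deposited count table. All 40 passed the filter on low counts, which left 16753 genes for the test. The RNA came from HCT116, a human colon cancer cell line. In the 3 sh-NC libraries the cells carried a lentiviral scrambled control, and in the 3 sh-IGF2BP3 libraries a lentiviral short hairpin RNA against IGF2BP3, an RNA-binding protein that recognises m6A-modified mRNA. Both cell lines had been selected with puromycin, and no drug or heat treatment is given in the labels of these libraries. A single hairpin sequence was used, so an effect of that sequence on other transcripts and an effect of IGF2BP3 loss cannot be told apart. The labels do not say whether the 3 libraries of a group came from separate cultures, so every test measures the spread between libraries, which may be technical.

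Chaperones bind unfolded or partly folded proteins and release them in an ATP-driven cycle, which prevents aggregation and lets the protein fold. HSP70 proteins receive clients from HSP40 (DNAJ) cochaperones, HSP90 completes the folding of many kinases and receptors, the TRiC ring encloses actin and tubulin, and small heat shock proteins hold unfolded clients without ATP. In mitochondria the same work is done by HSPA9, HSPD1 with its lid HSPE1, and TRAP1. When unfolded proteins accumulate, the transcription factor HSF1 forms trimers and binds repeated nGAAn units in the promoters of many of these genes. Cancer cells commonly carry high levels of HSP70 and HSP90 mRNAs even without heat shock.

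Library totals ranged from 16146718 to 23576469 counts on genes. Summed over genes, each pair of libraries within a group differed by more than counting noise, which was not assessed gene by gene. IGF2BP3 itself, the target of the hairpin, was at 90.3, 84.1 and 70.3 CPM (counts scaled to the TMM-normalized library size) in sh-NC 1, 2 and 3 and at 60.2, 52.3 and 55.8 CPM in sh-IGF2BP3 1, 2 and 3. The groups did not overlap, but its log2 fold change of −0.54 ± 0.18 (standard error, SE) had an adjusted p of 0.126 in edgeR's quasi-likelihood test. After removal of each library's trends with transcript GC content and length, the log2 fold change of IGF2BP3 was −0.22. Of 9 colon epithelial markers, 6 exceeded 10 CPM in every library, while VIL1 and CDX1 were at or near 0. All 5 leukocyte markers stayed under 1 CPM in every library, and among 6 fibroblast markers COL1A2 and LUM had 0 counts, while COL1A1 reached 58.5 CPM. Of 3 endothelial markers, PECAM1 and VWF reached 1.64 and 2.66 CPM and CDH5 stayed under 1 CPM.

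Promoter sequences are shown first because the binding element of HSF1 is the feature through which many of these genes are known to be induced. RefSeq promoters (build GRCh38.p14, 250 bases before to 50 bases after the start) were given for 36 of the 40 members, with none for HSPA14, CCT6A, HSPB11 and HSF1. A pair of opposed units, GAANNTTC or TTCNNGAA, was found in at least 1 promoter of 19 of these 36 members (52.8%) and of 16.2% of all 27305 genes with a promoter. Each pair reads the same on either strand, and overlapping matches were each counted. A run of 3 units, GAANNTTCNNGAA or TTCNNGAANNTTC, which always holds a pair, was found in 7 of the 36 (19.4%) and in 0.608% of all genes. The 7 were HSPA8, DNAJA1, DNAJB6, HSP90AA1, HSP90AB1, CHORDC1 and HSPD1. A match is a string of letters and not a measured site of binding. The 250 bases before the start are printed for the stress-inducible HSPA1A and HSPA1B, to show how alike this pair of genes is, for HSPB1, which had the largest fold change of the members, and for HSPA8 and CHORDC1, whose levels followed single libraries rather than the groups. Capitals mark matches to the pair of units.
HSPA1A (chr6:31815293-31815542, plus strand): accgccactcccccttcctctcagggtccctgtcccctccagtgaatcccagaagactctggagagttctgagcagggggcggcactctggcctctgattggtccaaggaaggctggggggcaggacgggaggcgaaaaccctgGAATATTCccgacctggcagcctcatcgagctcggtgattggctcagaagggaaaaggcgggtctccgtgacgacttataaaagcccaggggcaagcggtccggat
HSPA1B (chr6:31827488-31827737, plus strand): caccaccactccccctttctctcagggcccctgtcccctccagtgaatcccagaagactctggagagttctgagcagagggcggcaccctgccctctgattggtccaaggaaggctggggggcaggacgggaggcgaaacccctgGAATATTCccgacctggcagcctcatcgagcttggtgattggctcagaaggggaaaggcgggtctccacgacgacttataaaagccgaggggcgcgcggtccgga
HSPB1 (chr7:76302423-76302672, plus strand): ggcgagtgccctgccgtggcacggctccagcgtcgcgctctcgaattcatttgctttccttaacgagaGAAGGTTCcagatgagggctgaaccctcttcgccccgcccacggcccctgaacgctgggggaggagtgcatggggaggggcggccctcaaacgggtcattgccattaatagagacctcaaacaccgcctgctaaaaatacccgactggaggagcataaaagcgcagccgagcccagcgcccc
HSPA8 (chr11:123062137-123062386, minus strand): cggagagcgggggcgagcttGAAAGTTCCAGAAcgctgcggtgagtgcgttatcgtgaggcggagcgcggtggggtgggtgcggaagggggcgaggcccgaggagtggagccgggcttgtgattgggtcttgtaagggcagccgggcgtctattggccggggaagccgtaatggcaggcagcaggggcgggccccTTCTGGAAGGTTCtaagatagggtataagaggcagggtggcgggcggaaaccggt
CHORDC1 (chr11:90223050-90223299, minus strand): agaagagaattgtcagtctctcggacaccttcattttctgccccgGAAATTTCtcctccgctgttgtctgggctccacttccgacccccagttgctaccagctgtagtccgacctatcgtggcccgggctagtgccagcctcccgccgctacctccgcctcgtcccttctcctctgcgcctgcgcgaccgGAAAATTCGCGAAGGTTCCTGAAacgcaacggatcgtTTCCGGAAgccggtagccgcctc
HSPA1A and HSPA1B each held 1 match, to GAANNTTC, and their 300-base promoters were identical at 277 of 301 aligned positions. HSPB1 also held 1 match. HSPA8 held 4 matches to the pair and 2 runs of 3 units, and CHORDC1 held 6 matches and 3 runs.

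No member passed both thresholds in edgeR (more than 1.5-fold, with an adjusted p below 0.05), in either direction, and neither did any other gene (0% of 16753 higher and 0% lower). At an unadjusted p under 0.05, 9 of the 40 members were higher in sh-IGF2BP3, against 13.6% of all genes tested, and 0 were lower, against 8.54%. The 9 were HSPA1A, HSPA1B, HSPBP1, BAG3, DNAJB2, HSPE1, HSPB1, HSPB11 and HSF1. The median log2 fold change was 0.29 over the members and −0.01 over all genes, and 32 of the 40 members had a positive value against 8208 of the 16753 genes. In 9 members all 3 sh-IGF2BP3 libraries lay above all 3 sh-NC libraries (13.2% of all genes), and in 0 all lay below (11% of all genes). The smallest p that an exact two-sided permutation test can give with 3 against 3 libraries is 0.1, so no single gene could pass that test. In whole-cell RNA, fewer cells with a transcript and less of it in each cell cannot be told apart.

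**Figure D1:**
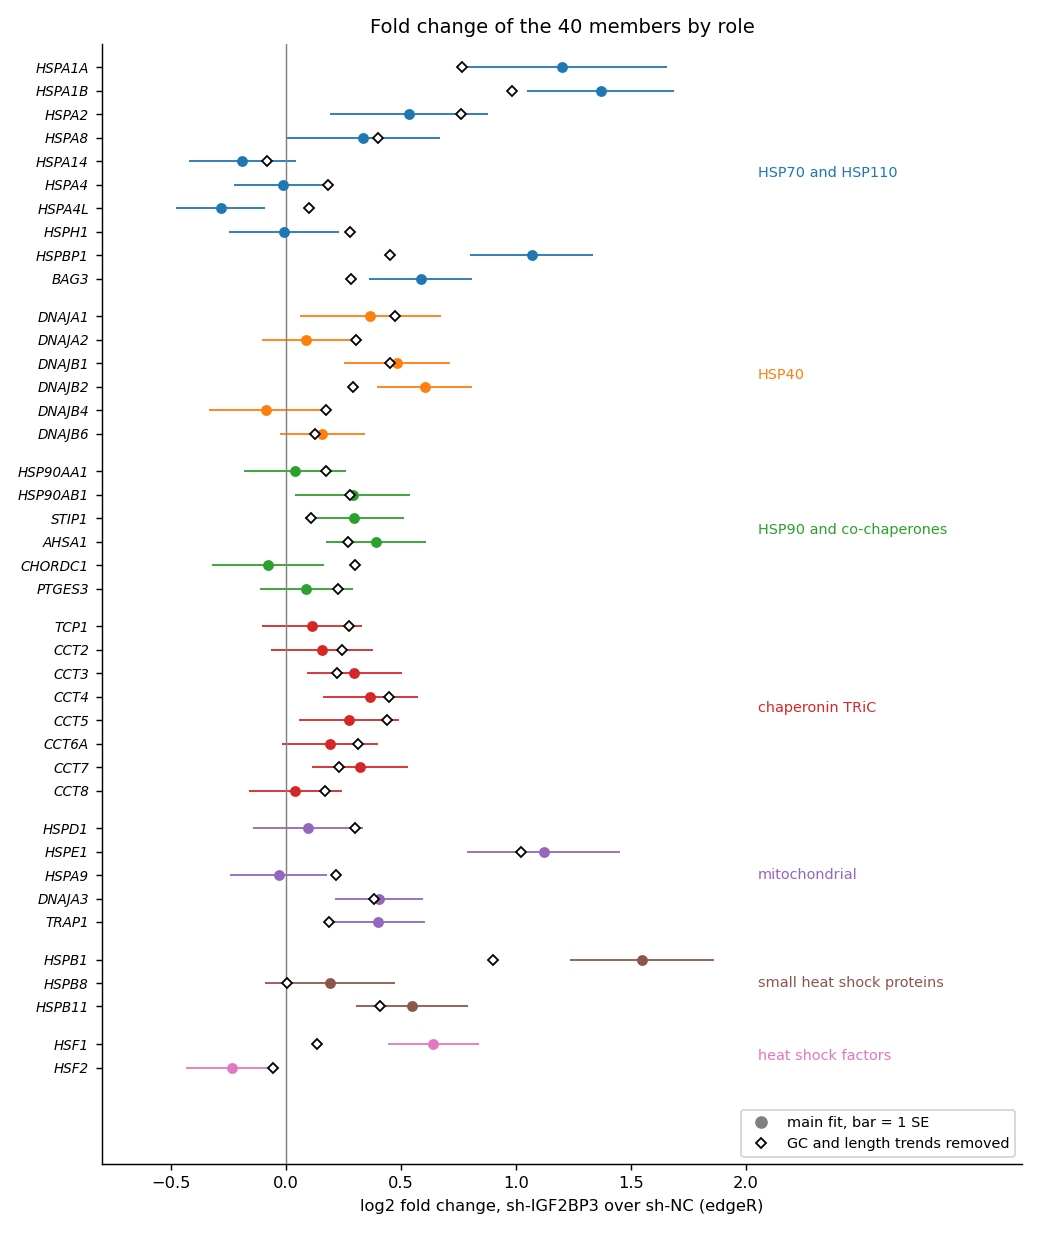
Log2 fold change of sh-IGF2BP3 over sh-NC for each of the 40 members, grouped by role. Filled points are the edgeR fit with bars of 1 SE, and open diamonds are the fit after removal of each library's trends with transcript GC content and length. HSPB1 is farthest to the right at 1.55 and HSPA4L farthest to the left at −0.28.

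DESeq2 called 4 members higher, HSPA1B, HSPBP1, HSPE1 and HSPB1, with adjusted p-values of 0.00902, 0.02, 0.0349 and 0.00201. It called 4.29% of all genes with an adjusted p higher and 1.05% lower, and 0 members lower. With no filter on low counts, edgeR tested 36335 genes and called the same 4 members higher. Of all those genes, which include many with low counts, 1.89% were called higher and 0.413% lower. Without sh-NC 1, edgeR called 10 members higher, HSPA1A, HSPA1B, HSPBP1, BAG3, DNAJA1, DNAJB1, AHSA1, HSPE1, HSPB1 and HSF1, where 10% of all genes were called higher and 5.67% lower. The median member's deviation from its 6-library mean (log2 CPM) was 0.17 in sh-NC 1, −0.09 in sh-NC 2 and −0.44 in sh-NC 3. Without sh-IGF2BP3 3 edgeR called HSPA1B, HSPE1 and HSPB1 higher, with adjusted p-values of 0.0458, 0.0458 and 0.0246. In that fit 1.23% of all genes were called higher and 0.0805% lower. Leaving out sh-NC 2, sh-NC 3, sh-IGF2BP3 1 or sh-IGF2BP3 2 gave 0 members called, and at most 5 of all genes were called higher.

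The inducible HSP70 genes stood high among the differences. HSPA1B (ENSG00000204388, chromosome 6, 31827738 to 31830254, plus strand) encodes the stress-inducible HSP70 protein. It was at 63.5, 25.5 and 31.1 CPM in sh-NC 1, 2 and 3 and at 96.1, 146.8 and 67.0 CPM in sh-IGF2BP3 1, 2 and 3. The groups did not overlap, but the lowest sh-IGF2BP3 library was only just above the highest sh-NC library. The sh-NC mean was 40.03 ± 20.5 CPM (SD, n = 3), and the sh-IGF2BP3 mean 103.3 ± 40.4 CPM. The log2 fold change was 1.37 ± 0.32 (SE), with an adjusted p of 0.103 in edgeR. HSPA1A (chromosome 6, 31815543 to 31817946) encodes the same protein from a neighbouring gene. It held 13 to 28 counts per sh-NC library and 28 to 52 per sh-IGF2BP3 library, or 1.58, 0.537 and 1.18 CPM against 2.52, 3.40 and 1.59 CPM. Its log2 fold change was 1.20 ± 0.45, with an adjusted p of 0.15. The groups did not overlap, but sh-NC 1 and sh-IGF2BP3 3 were almost level, with 28 counts each. Of the 100-base windows of the longest HSPA1A transcript in GENCODE 29, 69.9% occur unchanged in HSPA1B, so the split of reads between both genes is uncertain. With their counts summed, a choice made after the data were seen, the log2 fold change was 1.36 ± 0.32 and the adjusted p 0.103.

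HSPBP1, a nucleotide exchange factor of HSP70, was at 39.4, 26.6 and 18.8 CPM in sh-NC and at 68.2, 69.1 and 40.4 CPM in sh-IGF2BP3. The groups did not overlap, and the log2 fold change of 1.07 ± 0.27 had an adjusted p of 0.103 in edgeR. BAG3 links HSP70 to small heat shock proteins and to the autophagy of unfolded clients. It was at 142.1, 91.0 and 75.8 CPM in sh-NC and at 142.0, 170.8 and 151.2 CPM in sh-IGF2BP3. Here sh-NC 1 lay level with sh-IGF2BP3 1, so the groups overlapped, and the log2 fold change of 0.59 ± 0.22 had an adjusted p of 0.152. HSPA8, the constitutive HSP70 of the cytosol, gave another picture, with 3562, 1712 and 1566 CPM in sh-NC and 1527, 3385 and 3725 CPM in sh-IGF2BP3. One control library lay with the higher pair of sh-IGF2BP3 libraries, and sh-IGF2BP3 1 was the lowest of the 6. The log2 fold change was 0.34 ± 0.33, with an adjusted p of 0.569. HSPH1, an HSP110 protein that recharges HSP70 with ATP, was at 463.9, 356.6 and 303.8 CPM in sh-NC and at 245.6, 409.3 and 463.1 CPM in sh-IGF2BP3. Its log2 fold change was −0.01 ± 0.24 with an adjusted p of 0.986. The remaining members of this group overlapped between the groups, with adjusted p-values from 0.367 upward. Their log2 fold changes were −0.28 for HSPA4L, −0.19 for HSPA14, −0.01 for HSPA4 and 0.53 for the low HSPA2. The gene model of HSPA14 overlaps MSANTD7 on the same strand over 26.0% of its length, so its count depends on how such reads were assigned.

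**Figure D2:**
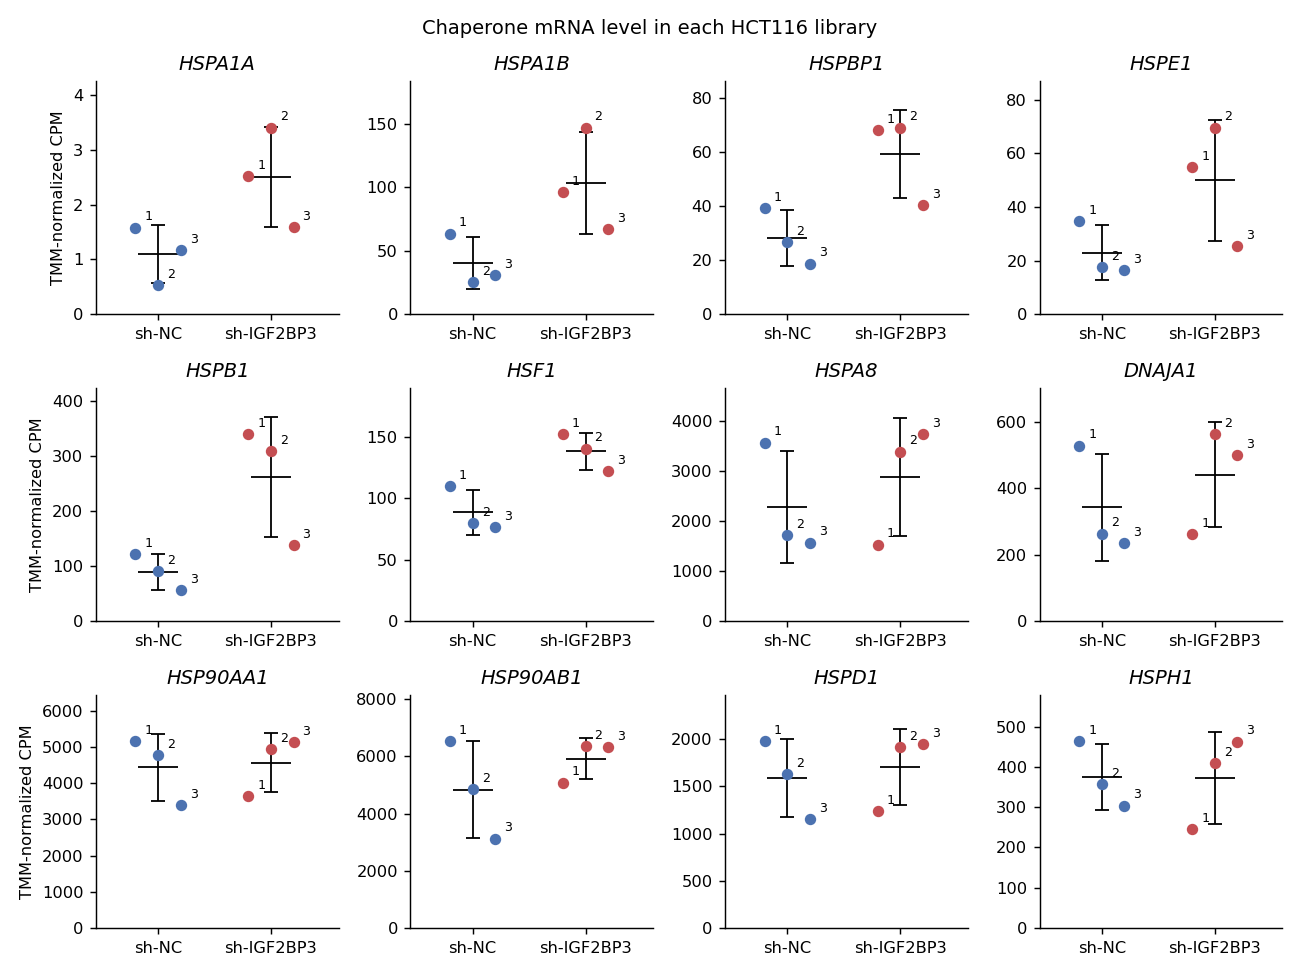
TMM-normalized CPM of 12 members in each library, with the library number beside each point and the mean and SD of the 3 libraries in black. The upper row, HSPB1 and HSF1 are higher on average in sh-IGF2BP3, while HSPA8, DNAJA1, HSP90AA1, HSP90AB1, HSPD1 and HSPH1 are highest in sh-NC 1 and in sh-IGF2BP3 2 and 3.

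HSP40 proteins bring clients to HSP70 and start its ATP hydrolysis. DNAJB1, the main inducible HSP40, was at 254.6, 160.6 and 143.5 CPM in sh-NC and at 206.3, 285.9 and 288.5 CPM in sh-IGF2BP3. The groups overlapped through sh-NC 1, and the log2 fold change of 0.48 ± 0.23 had an adjusted p of 0.232. DNAJB2, which carries ubiquitin-interacting motifs and sends clients to the proteasome, was at 18.5, 19.9 and 22.2 CPM in sh-NC and at 32.6, 34.1 and 25.4 CPM in sh-IGF2BP3. These groups did not overlap, with a log2 fold change of 0.60 ± 0.21 and an adjusted p of 0.13. DNAJA1 ranged from 233.8 to 527.8 CPM in sh-NC and from 262.4 to 561.0 CPM in sh-IGF2BP3, each group having both high and low libraries. The log2 fold changes of DNAJA1, DNAJA2, DNAJB4 and DNAJB6 lay between −0.09 and 0.37. DNAJB1 lies with 94.9% of its gene model opposite TECR, and whether the authors counted reads by strand is not stated.

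Both cytosolic HSP90 genes had higher mRNA levels per gene length than any other member, and 0 of the 6 genes of HSP90 and its cochaperones had an unadjusted p under 0.05. HSP90AB1, the constitutive cytosolic HSP90, was at 6531, 4851 and 3126 CPM in sh-NC and at 5083, 6352 and 6320 CPM in sh-IGF2BP3. The highest library was a control, and the log2 fold change of 0.29 ± 0.25 had an adjusted p of 0.505. HSP90AA1, the inducible form, was at 5159, 4768 and 3404 CPM in sh-NC and at 3641, 4941 and 5127 CPM in sh-IGF2BP3, with a log2 fold change of 0.04 ± 0.22 and an adjusted p of 0.929. The groups overlapped in both genes. AHSA1, which speeds the ATPase of HSP90, had a log2 fold change of 0.39 ± 0.22, STIP1, which hands clients from HSP70 to HSP90, one of 0.30 ± 0.22, the cochaperone PTGES3 (p23) one of 0.09 ± 0.20 and CHORDC1 one of −0.08 ± 0.24. Their adjusted p-values in edgeR lay between 0.299 and 0.874.

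All 8 subunits of TRiC, the cytosolic chaperonin, had positive log2 fold changes, from 0.04 for CCT8 to 0.37 for CCT4, and none reached an unadjusted p under 0.05. CCT4 was at 351.1, 312.9 and 224.0 CPM in sh-NC and at 361.9, 430.9 and 353.2 CPM in sh-IGF2BP3. It was the only subunit whose groups did not overlap, narrowly between sh-NC 1 and sh-IGF2BP3 3, and its adjusted p was 0.302. Every one of the 8 subunits was lowest in sh-NC 3. Without that library the log2 fold changes of TCP1, CCT2 and CCT8 were −0.08, −0.02 and −0.12, and that of CCT8 was also negative in some other settings.

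Among the mitochondrial chaperones, HSPE1 and HSPD1 gave different values although they form 1 folding machine and are transcribed from a shared promoter region in opposite directions. HSPE1, the lid of the mitochondrial chaperonin, was at 34.8, 17.6 and 16.6 CPM in sh-NC and at 54.9, 69.6 and 25.3 CPM in sh-IGF2BP3. The value of sh-IGF2BP3 3 was under that of sh-NC 1, so there was overlap. The log2 fold change was 1.12 ± 0.33, with an adjusted p of 0.112. HSPD1, the chaperonin barrel, was at 1979, 1635 and 1155 CPM in sh-NC and at 1237, 1915 and 1952 CPM in sh-IGF2BP3. Its log2 fold change was 0.10 ± 0.24, with an adjusted p of 0.834. The gene model of HSPE1 lies wholly opposite HSPD1 and to 91.8% inside the readthrough gene HSPE1-MOB4 on its own strand, so its count depends on how such reads were assigned. DNAJA3, the mitochondrial HSP40, was at 134.5, 116.1 and 88.2 CPM in sh-NC and at 151.7, 151.0 and 146.0 CPM in sh-IGF2BP3. These groups did not overlap, and the log2 fold change of 0.41 ± 0.19 had an adjusted p of 0.23. TRAP1, the mitochondrial HSP90, had a log2 fold change of 0.40 ± 0.21, and HSPA9, the HSP70 of the matrix, one of −0.03 ± 0.21.

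HSPB1 (ENSG00000106211, chromosome 7, 76302673 to 76304295, plus strand), the small heat shock protein HSP27, had the largest fold change and the smallest unadjusted p of the 40 members. It was at 121.6, 90.9 and 56.1 CPM in sh-NC and at 338.4, 308.9 and 137.8 CPM in sh-IGF2BP3. All 3 sh-IGF2BP3 libraries lay above the controls, with sh-IGF2BP3 3 close to sh-NC 1. The mean was 89.5 ± 32.8 CPM in sh-NC and 261.7 ± 108.3 CPM in sh-IGF2BP3, a ratio of 2.92. The log2 fold change was 1.55 ± 0.31, with an unadjusted p of 0.000151 and an adjusted p of 0.103 in edgeR. HSPB11, an intraflagellar transport protein that carries a small heat shock protein name, was at 15.7, 18.6 and 16.3 CPM in sh-NC and at 20.4, 34.1 and 19.6 CPM in sh-IGF2BP3. The groups narrowly did not overlap, and the log2 fold change of 0.55 ± 0.24 had an adjusted p of 0.204. HSPB8, the partner of BAG3, stayed between 4.85 and 7.72 CPM in all libraries, with a log2 fold change of 0.19 ± 0.28.

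HSF1, the main transcription factor of the heat shock response, was at 109.5, 79.5 and 76.4 CPM in sh-NC and at 151.8, 140.4 and 121.9 CPM in sh-IGF2BP3. The groups did not overlap, and the log2 fold change of 0.64 ± 0.20 had an adjusted p of 0.117 in edgeR. HSF2, a related factor, was at 32.8, 42.3 and 40.3 CPM in sh-NC and at 27.0, 34.7 and 36.4 CPM in sh-IGF2BP3. These groups overlapped, with a log2 fold change of −0.23 ± 0.20 and an adjusted p of 0.504. HSF1 is controlled mainly after translation, so its mRNA level is not a measure of its activity.

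The levels per gene length (FPKM) differed widely among the members. This gene length can exceed that of the longest transcript, by an amount that varies between genes. For HSPD1 it was 7629 bases against 2455, and for HSP90AB1 2980 against 2674. The order of members by FPKM therefore depends on the gene length used, and levels per transcript length were not computed. HSP90AB1 had a mean of 1783 FPKM over the 6 libraries, followed by HSP90AA1 at 878 FPKM and HSPA8 at 523 FPKM. The 8 TRiC subunits lay together between 97.8 and 226 FPKM, and HSPD1 lay at 214 FPKM. HSPB1 was at 55.7 FPKM in sh-NC and 157 FPKM in sh-IGF2BP3, and HSPE1 at 12.7 and 26.6 FPKM. The lowest were HSPA1A at 0.737, HSPA2 at 0.756 and HSPB8 at 1.74 FPKM. The members with the largest fold changes were thus of low or middle level, and the abundant HSP90AB1, HSP90AA1, HSPA8 and HSPD1 did not reach an unadjusted p under 0.05.

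**Figure D3:**
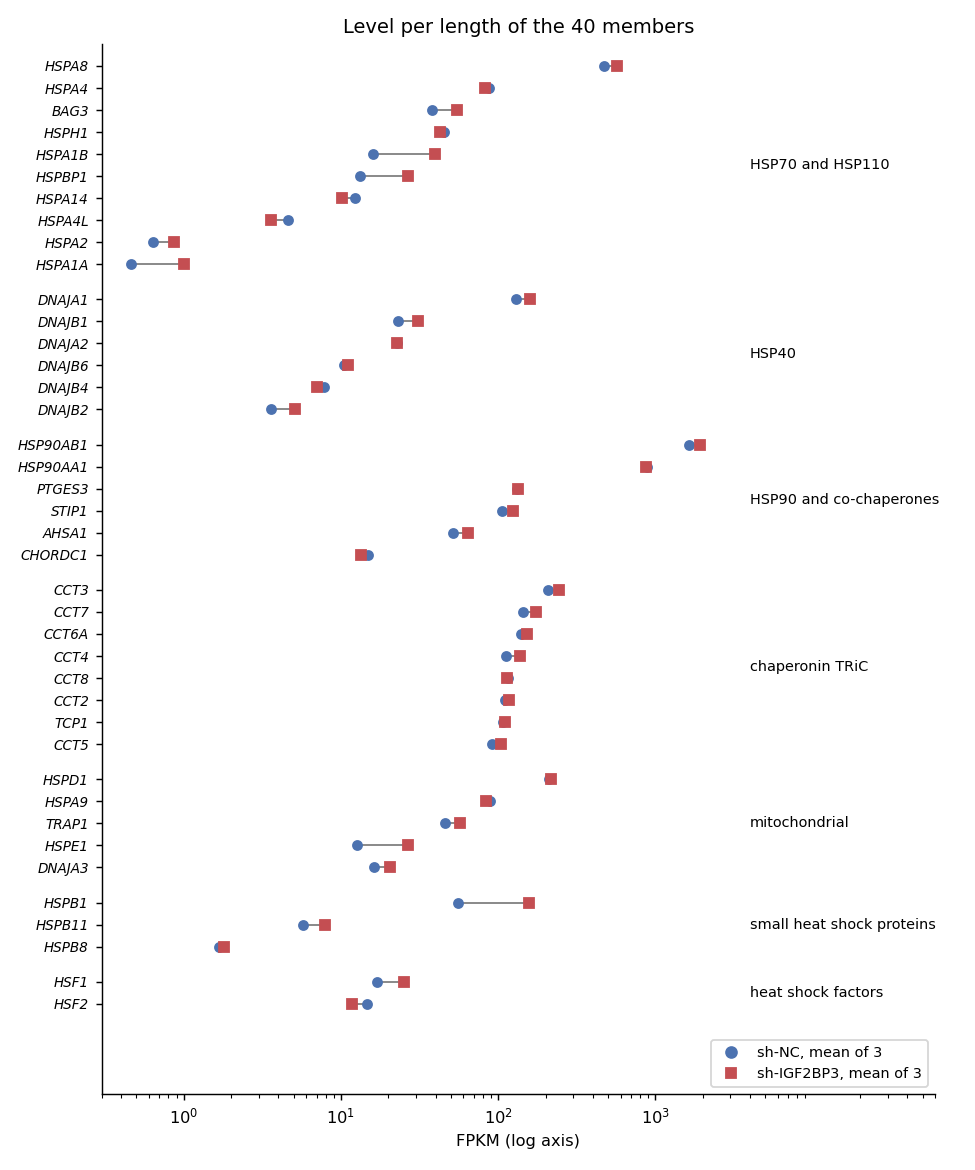
Mean FPKM (counts scaled to gene length and library total, log axis) of each member in sh-NC (circles) and sh-IGF2BP3 (squares), ordered by level within each role. HSP90AB1 is highest and HSPA1A lowest, and the widest gaps between the groups are those of HSPB1, HSPA1B, HSPA1A, HSPE1 and HSPBP1.

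In many members the 3 highest libraries came from both groups. In HSPA8 the 3 highest libraries were sh-NC 1, sh-IGF2BP3 2 and sh-IGF2BP3 3, and 22 of the 40 members, HSPA8 included, shared these 3, against 9.22% of all genes tested. HSPA8 was taken as the reference after its values were seen. The 22 included HSPA4, HSPH1, BAG3, DNAJA1, DNAJB1, HSP90AA1, HSP90AB1, STIP1, AHSA1, CHORDC1, HSPD1 and 7 of the 8 TRiC subunits. In some of them all 3 sh-IGF2BP3 libraries still lay above sh-NC 2 and 3, among them BAG3, DNAJB1, HSP90AB1, STIP1, AHSA1, CCT3, CCT5 and CCT7. In BAG3 the order rests on a near tie, with 142.1 CPM in sh-NC 1 and 142.0 CPM in sh-IGF2BP3 1. In 9 members (22.5%, against 13.2% of all genes) the 3 sh-IGF2BP3 libraries were the highest, and these are the 9 whose groups did not overlap. The lowest library was sh-NC 3 in 24 members and sh-IGF2BP3 1 in 9. All counts of the members together made up 2.66%, 2.22% and 1.74% of sh-NC 1, 2 and 3. In sh-IGF2BP3 1, 2 and 3 they made up 2.03%, 2.62% and 2.67%, so the shares overlapped. The median member lay 0.44 below its 6-library mean (log2 CPM) in sh-NC 3, and 0.17 above it in sh-NC 1, 0.27 above it in sh-IGF2BP3 2 and 0.17 above it in sh-IGF2BP3 3. Over all genes this median deviation stayed within 0.04 of 0 in every library.

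**Figure D4:**
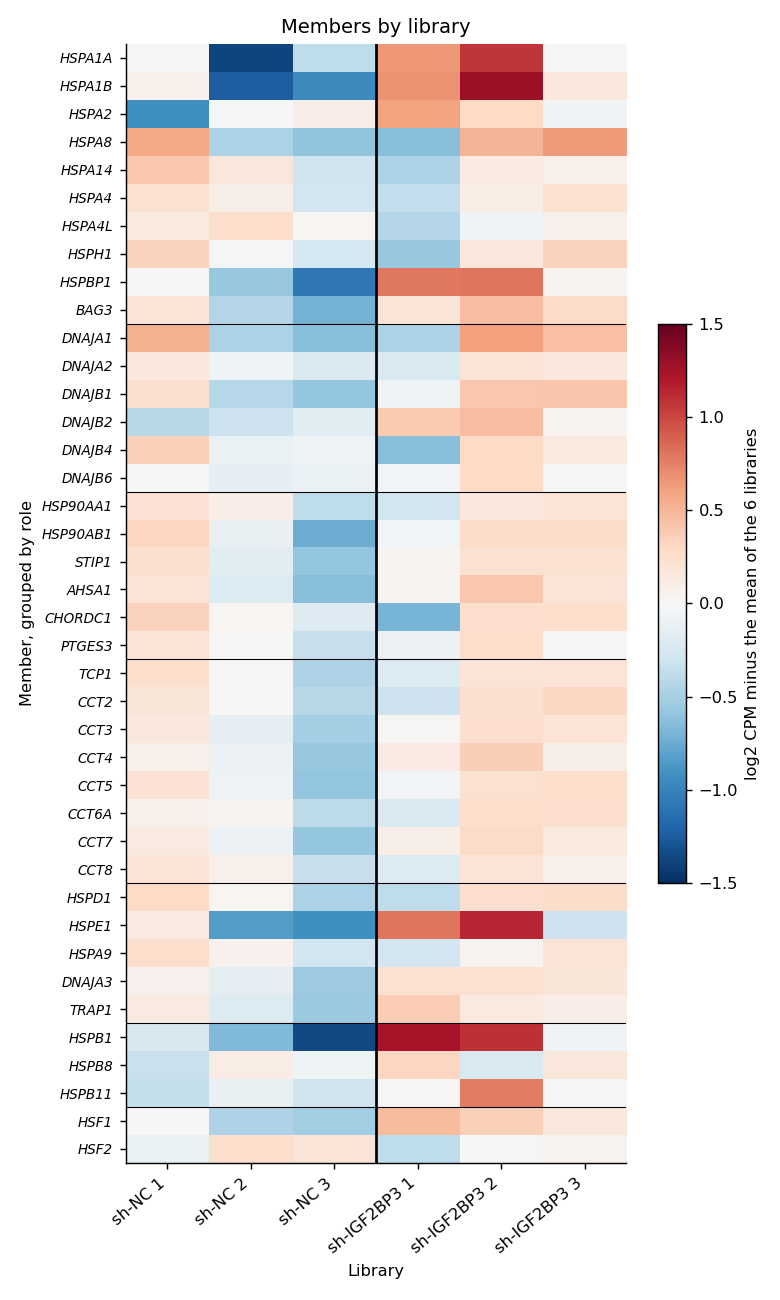
Log2 CPM of each member minus its mean over the 6 libraries, with sh-NC left and sh-IGF2BP3 right of the vertical line. Most rows are above their mean (red) in sh-NC 1, sh-IGF2BP3 2 and sh-IGF2BP3 3 and lowest (blue) in sh-NC 3, while HSPA1B, HSPBP1, HSPE1 and HSPB1 are above their mean in sh-IGF2BP3 1 and 2.

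All 7 members with a run of 3 units in a promoter, HSPA8, DNAJA1, DNAJB6, HSP90AA1, HSP90AB1, CHORDC1 and HSPD1, had the same 3 highest libraries as HSPA8, which HSPA8 does by construction. So did 14 of the 29 other members with a promoter (48.3%). In DNAJB6 this rests on a near tie, with 157.1 CPM in sh-IGF2BP3 3 and 155.5 CPM in sh-IGF2BP3 1. Among tested genes outside the list, 7 of 51 with such a run (13.7%) and 9.68% of those without one had these 3 highest. This cross-count was made after the library values had been seen. Of the 19 members with a match to the pair, 12 had these 3 highest (63.2%), as did 9 of the 17 without one (52.9%). HSPA1A, HSPA1B and HSPB1 were among the members with a pair that did not, and STIP1, TCP1 and CCT2 among those that did.

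The differences followed the GC content of the transcripts, across the members as across all genes. Spearman's rho between log2 fold change and GC content was 0.83 over the 40 members and 0.61 over all tested genes with a known GC content. These are descriptions, since the genes share the 6 libraries. The 6 members with the highest GC content were HSF1 at 64.7%, HSPBP1 at 64.6%, HSPB1 at 64.3%, HSPA1A at 59.7%, DNAJB2 at 59.1% and HSPA1B at 58.7%, and all were among the 9 with an unadjusted p under 0.05. At the other end, DNAJB4 had 33.1%, CHORDC1 35.0% and HSPA4L 38.1%, with log2 fold changes of −0.09, −0.08 and −0.28. The median log2 fold change of all genes went from −0.34 at a GC content near 36.25% to 0.56 near 63.75%.

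After each library's trends with GC content and length had been taken out, 6 members were higher at an unadjusted p under 0.05, against 6.87% of all genes, and 0 lower, against 3.59%. They were HSPA1B, HSPA2, HSPBP1, CCT4, HSPE1 and HSPB1. HSPB1 then had a log2 fold change of 0.90 with an unadjusted p of 0.0039, HSPA1B 0.98 with 0.0074 and HSPE1, at a middle GC content of 50.2%, 1.02 with 0.0117. HSPBP1 went from 1.07 to 0.45 and HSF1 from 0.64 to 0.14, the latter with an unadjusted p of 0.425. No member had an adjusted p under 0.05 in this fit either. The median over the members was 0.28, near that of the uncorrected fit, against 0.01 over all genes. In this fit 38 of the 40 members had a positive value against 8612 of the 16753 genes. The libraries of the groups still overlapped. With the trends removed, the median member's deviation from its 6-library mean was 0.21, −0.13 and −0.52 in sh-NC 1, 2 and 3. In sh-IGF2BP3 1, 2 and 3 it was −0.08, 0.30 and 0.20. The part of GC content in these differences was not tested beyond this removal.

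**Figure D5:**
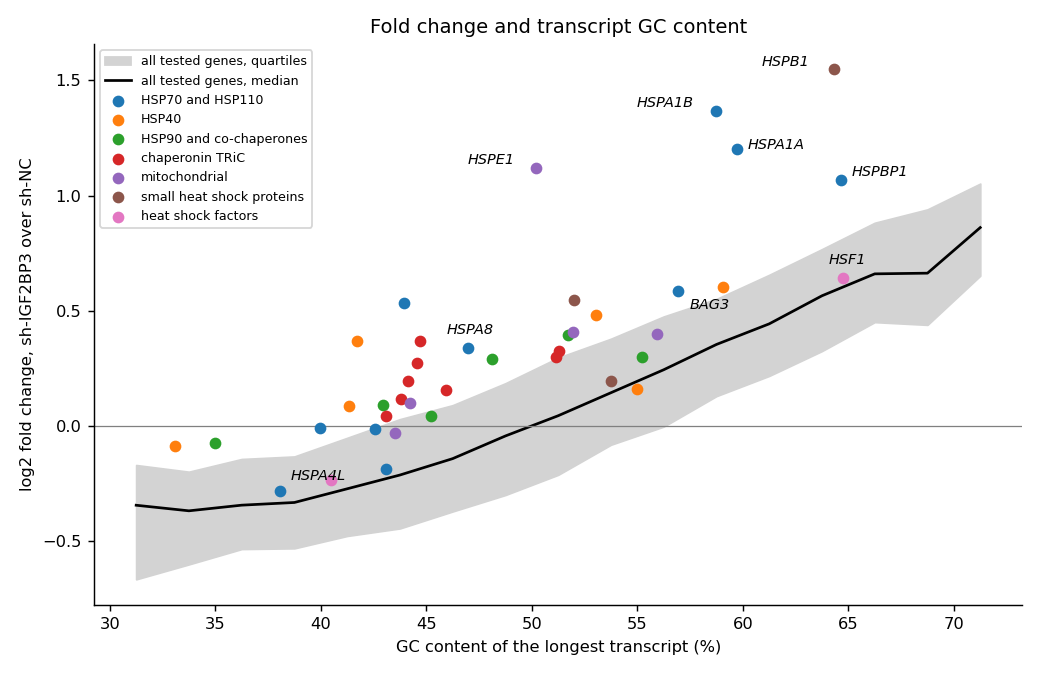
Log2 fold change of each member (points, coloured by role) against the GC content of its longest transcript, over the median (line) and quartiles (band) of all tested genes. The points lie higher at higher GC content, as the line does. HSF1 lies within the band, and the members above it include HSPB1, HSPA1B, HSPA1A, HSPBP1, HSPE1, BAG3 and HSPA8.

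The rest of the chaperone network was taken from a list of 99 further cytosolic and mitochondrial chaperones, cofactors and heat shock factors, of which 84 were tested. No gene of this list passed the adjusted threshold, 21 were higher at an unadjusted p under 0.05 (25%, against 13.6% of all genes) and 3 were lower, against 8.54%. The median log2 fold change was 0.22, and the groups did not overlap in 19 genes that were higher (13.2% of all genes) and in 6 that were lower (11% of all genes). Cochaperones of HSP90 held 10 of the 21 among 20 tested. With the GC and length trends removed, 4 of these 20 were higher at an unadjusted p under 0.05 (6.87% of all genes). Their median log2 fold change was 0.37 before this removal and 0.23 after it. The 5 genes with the smallest unadjusted p on the higher side were TELO2, which with HSP90 matures PI3K-related kinases, STUB1, the ubiquitin ligase of HSP70 and HSP90 clients, RUVBL2, an ATPase of the R2TP cochaperone complex, PFDN2, a prefoldin subunit that hands actin and tubulin to TRiC, and LONP1, the protease of the mitochondrial matrix. Their log2 fold changes were 0.88, 0.98, 0.90, 0.75 and 0.77, and with the trends removed they were 0.26, 0.35, 0.47, 0.61 and 0.30. PFDN2 lay at 35.9, 32.3 and 25.6 CPM in sh-NC and at 57.0, 60.6 and 39.98 CPM in sh-IGF2BP3, without overlap. On the lower side were the HSP40 family genes DNAJC16 and DNAJC27, with log2 fold changes of −0.52 and −0.61. With the trends removed, 13 of the 84 were higher and 0 lower at an unadjusted p under 0.05, against 6.87% and 3.59% of all genes.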

How the data were processed

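The authors deposited whole-number counts per gene for the 6 libraries, without normalization, and FPKM values, which are the same counts divided by library total and by 1 gene length. CASAVA and GRCh38 are named in the submitters' processing notes. The aligner, the counter and the use of strand are not given in the sources used here. Counts were fitted in R 4.3.3 with edgeR 4.0.16 (filterByExpr defaults, TMM, glmQLFit and glmQLFTest, two-sided, no further term, Benjamini-Hochberg adjustment over all genes tested). The thresholds, a fold change of 1.5 and an adjusted p of 0.05, are those of the study. Printed CPM use TMM-normalized library sizes. Alternatives were DESeq2 1.42.0, limma 3.58.1 on log2(FPKM + 1) and on log2(FPKM + 0.1), RLE and upper-quartile normalization, other filters, each library left out, a replicate block, any fold change, and removal of trends in GC content and gene length (splines with 5 degrees of freedom per library). Only the edgeR, DESeq2 and limma tests were tried on simulated counts, in a simple form, and the trend removal and promoter matching were not. GC content and shared 100-base windows came from the longest GENCODE 29 transcript, and coordinates from the deposited annotation on GRCh38.

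All members are accounted for. Library values are given for IGF2BP3, for 13 members listed by name, for every member with an unadjusted p under 0.05 and for every member whose groups did not overlap. From the further list, the 5 genes with the smallest unadjusted p under 0.05 in each direction are named, except 1 gene that is not reported here. Other genes were named after their values were seen. The members and lists were chosen with earlier results of these data known. Same-numbered libraries of the groups correlated at −0.284, −0.186 and −0.043 in their deviations from the group means, so the numbers were not treated as pairs.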

Additional observations from a re-analysis of the deposited data

How the results depend on the processing

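The count of members called higher was 0 in edgeR with TMM, RLE or upper-quartile normalization, with at least 10 counts in every library, with any fold change, with the replicate block, after removal of the GC and length trends, and in limma on FPKM. It was 4 in DESeq2 and 4 with no filter on low counts. With a library left out it was 10 without sh-NC 1, 3 without sh-IGF2BP3 3 and 0 without any other library. The cause was not tested. The count at an unadjusted p under 0.05 was 9 (13.6% of all genes), 11 with the replicate block (12.6%), 4 with trend removal and the replicate block together (5.12%), and 5 to 20 when a library was left out. It was 5 if sh-NC 2 (7.02%) or sh-IGF2BP3 2 (7.53%) was dropped and 20 if sh-NC 1 was (17.7%). No setting called a member lower or gave one a lower value at an unadjusted p under 0.05. The median log2 fold change of the members was 0.29, 0.33 with the replicate block, and 0.11 to 0.48 when a library was left out, the lowest without sh-NC 3. In DESeq2 and with no filter the median of all genes was −0.11, but it also covers genes that the filter on low counts removes from the main fit. The member medians there were 0.30 and 0.29, so the members themselves hardly moved. The sign changed in 44 of 677 member values under alternatives, in 13 members, none of which had an unadjusted p under 0.05 to begin with. Depth limits HSPA1A most, with 13 to 52 counts per library.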

Other observations

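Chaperones of the endoplasmic reticulum, a list of 20 genes chosen for comparison, were all tested, and 0 passed the adjusted threshold in edgeR. At an unadjusted p under 0.05, SDF2L1, CRELD2, SIL1, CALR and MANF were higher (25%, against 13.6% of all genes). DNAJC10 was lower, where 8.54% of all genes were. The median log2 fold change of the 20 was 0.19. CALR, the lectin chaperone calreticulin, was at 1059, 796.3 and 581.6 CPM in sh-NC and at 1032, 1284 and 1157 CPM in sh-IGF2BP3, so the groups overlapped through sh-NC 1. CRELD2, an ER protein induced by unfolded proteins, was at 34.5, 23.2 and 26.8 CPM in sh-NC and at 48.0, 45.8 and 36.6 CPM in sh-IGF2BP3, without overlap. Once trends with GC content and length were taken out, its log2 fold change of 0.63 became 0.47. It was then the only 1 of the 20 that was higher at an unadjusted p under 0.05 (6.87% of all genes), and 0 were lower (3.59%). SDF2L1 went from 1.03 to 0.42, SIL1 from 0.64 to 0.27, CALR from 0.51 to 0.32, MANF from 0.53 to 0.40 and DNAJC10 from −0.54 to −0.06. No difference between these genes and the cytosolic and mitochondrial chaperones was tested.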
